A study of Mus musculus with 6 samples.

Results

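B3gnt5, B3gnt6, B3gnt7 and B4galnt1 encode glycosyltransferases, enzymes of the Golgi that add one sugar at a time to growing glycan chains, and their transcripts were read in the colon of mice exposed for a long time to PFOA (perfluorooctanoic acid), a fluorinated surfactant that breaks down very slowly. They are the rows of the count table whose reference name starts with B3gnt and a digit, or equals B4galnt1, which gave 4 of 2033 rows, none of them merged with another gene. The study set 3 libraries of colon tissue from PFOA-exposed mice against 3 libraries from control mice, sequenced as RNA. For each group the labels name 6 mice with flash-frozen tissue but do not tie mice to libraries, and strain, sex, age, dose, length of exposure and colon part are not stated. A p-value here therefore reflects library-to-library spread, which may be technical, and if colon part differed by group, its effect and that of the exposure cannot be told apart.

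The B3GNT enzymes transfer N-acetylglucosamine. B3gnt6 places it on the first sugar of a mucin chain and so makes core 3, a core structure of colon mucins. B3gnt7 lengthens chains of galactose and N-acetylglucosamine such as those of keratan sulfate. B3gnt5 places N-acetylglucosamine on lactosylceramide, the first step of the lacto and neolacto glycolipids. B4galnt1 transfers N-acetylgalactosamine to lactosylceramide and to the simple gangliosides GM3 and GD3, the step that opens the complex gangliosides.

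B3gnt7 and B3gnt5 were lower in PFOA colon, 51.1-fold and 7.73-fold by mean CPM (the count relative to the summed counts of the tested rows in its library, after TMM, a trimmed-mean scaling between libraries). B3gnt6 and B4galnt1 were higher, 9.77-fold and 6.28-fold. The table lists rows that had already been selected for a difference between these same groups. All 4 genes passed the filter on low counts, and all 4 passed edgeR's quasi-likelihood test at an adjusted p under 0.05, 2 higher and 2 lower, but so did 100% of the 1608 tested rows, with 50% higher and 50% lower. The calls of the 4 genes are therefore at the background and are given as a description. What the values add is the size, the direction and the levels of each gene, and which other glycan genes stand in the table.

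Promoter sequences of RefSeq (build GRCm38.p6), running from 250 bases before to 50 bases after the start of the gene in RefSeq, were matched for B3gnt5 and B3gnt7, the pair that was lower in PFOA, and they are shown as the sequences of the start regions of these genes. The B3gnt5 window lies on the plus strand at chr16:19759984-19760283 and the B3gnt7 window on the plus strand at chr1:86302971-86303270. The RefSeq start lies 389 bases inside the B3gnt7 row of the table, so that this window is wholly within the row, and 26 bases inside the B3gnt5 row. Capitals mark the GC box GGGCGG on either strand.
B3gnt5: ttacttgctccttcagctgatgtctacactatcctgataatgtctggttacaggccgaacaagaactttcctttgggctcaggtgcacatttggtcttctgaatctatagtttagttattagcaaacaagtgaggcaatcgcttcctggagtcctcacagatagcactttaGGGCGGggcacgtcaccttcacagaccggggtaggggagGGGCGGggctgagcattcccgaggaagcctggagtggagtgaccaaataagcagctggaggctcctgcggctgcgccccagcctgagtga
B3gnt7: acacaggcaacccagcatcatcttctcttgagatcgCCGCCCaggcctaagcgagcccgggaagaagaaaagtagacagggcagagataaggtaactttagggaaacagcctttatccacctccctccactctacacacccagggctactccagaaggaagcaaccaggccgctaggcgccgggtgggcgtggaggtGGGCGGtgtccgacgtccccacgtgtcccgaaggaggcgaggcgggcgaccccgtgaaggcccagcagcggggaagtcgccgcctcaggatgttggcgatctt

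The GC box is the short motif bound by Sp1-type factors. In the B3gnt5 window it stands at bases 172 to 177 and 211 to 216, counted from the first printed base, and in the B3gnt7 window at bases 198 to 203 and, on the opposite strand, 37 to 42. It occurs in 35.7% of the 32851 promoter windows of the table, so its presence is common. The windows of B4galnt2, which was higher in PFOA, and of B4galnt3, which was lower, hold it as well. The receptor half-site AGGTCA occurs in 16.3% of the windows, its direct repeat with 1 base between in 0.0396%, the caudal-type motif TTTATNG in 10.9% and the posterior Hox-type motif CTCGTAAA in 0.131%. These letters are not in either window on either strand, nor in the windows of B4galnt2 and B4galnt3. GC content was 53.3% for B3gnt5 and 62.0% for B3gnt7, against a median of 52.7% over all windows. The B3gnt7 window holds 21 CpG pairs and the B3gnt5 window 9, against a median of 7. The GC box was searched after the other motifs had given no match.

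B3gnt7, which lengthens galactose and N-acetylglucosamine chains, had 115, 314 and 274 counts in PFOA replicates 1, 2 and 3, against 14914, 10137 and 11126 counts in control replicates 1, 2 and 3. The groups lay far apart, with the highest PFOA library far under the lowest control library, and PFOA replicate 1 was the lowest of all. On the CPM scale the level was 112 ± 45.1 in PFOA and 5740 ± 1327 in control (SD, n = 3 each). The log2 fold change was -5.67 ± 0.43 (SE over 3 libraries a group; adjusted p = 7.26e-05 by edgeR). By size of the log2 fold change B3gnt7 ranked 55 among the 804 tested rows that were lower in PFOA. Relative spread within a group was also the widest of the 4 genes, with a highest-to-lowest CPM ratio of 2.40 among PFOA libraries and 1.48 among control libraries.

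The B3gnt7 row lies on chromosome 1, plus strand, at 86302832 to 86307305 (mm10 coordinates of the table), and its listed length of 4137 bases equals the union of the exons in GENCODE M21. The antisense gene Gm28626 overlaps 865 bases of it. That gene is merged with Gm16341 into one row, which had 285, 280 and 244 counts in PFOA and 3925, 2851 and 3269 in control, a log2 fold change of -3.58. The sources used here do not state whether counting used the strand, so reads of B3gnt7 and of its antisense neighbour cannot be told apart where they overlap.

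B3gnt5, the starter enzyme of the lacto and neolacto glycolipids, had 149, 158 and 174 counts in PFOA and 1295, 1137 and 1408 counts in control. Both groups were tight and did not overlap. The level was 78.5 ± 3.61 CPM in PFOA and 607 ± 49.0 CPM in control (SD, n = 3 each), which is a coefficient of variation of 4.60% in PFOA and 8.08% in control, the lowest of the 4 genes in each group. The log2 fold change was -2.95 ± 0.21 (SE over 3 libraries a group; adjusted p = 5.46e-05 by edgeR) and ranked 186 in size among the 804 lower rows. The row lies on chromosome 16, plus strand, at 19760208 to 19772753, and no other GENCODE gene overlaps it. The longest coding transcript has 6 exons, and its 1128 coding bases lie in 1 of them.

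B3gnt6, the core 3 synthase, was the gene with the fewest counts, at 79, 96 and 131 in PFOA and 11, 11 and 10 in control. The groups did not overlap, and PFOA replicate 3 was the highest. The level was 49.5 ± 10.1 CPM in PFOA and 5.07 ± 0.468 CPM in control (SD, n = 3 each). The log2 fold change was 3.27 ± 0.33 (SE over 3 libraries a group; adjusted p = 2.19e-04 by edgeR) and ranked 143 among the 804 higher rows. The row lies on chromosome 7, minus strand, at 98192417 to 98199481, has 1 transcript of 2 exons, and overlaps no other gene.

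B4galnt1, the GM2 and GD2 synthase, had 4232, 3810 and 4508 counts in PFOA and 718, 616 and 737 counts in control. The groups were again tight and separate. The level was 2055 ± 241 CPM in PFOA and 327 ± 26.6 CPM in control (SD, n = 3 each). The log2 fold change was 2.65 ± 0.21 (SE over 3 libraries a group; adjusted p = 8.70e-05 by edgeR) and ranked 203 among the 804 higher rows. The row lies on chromosome 10, plus strand, at 127165225 to 127172330, where the last 938 bases overlap Slc26a10, an anion exchanger family gene on the opposite strand that has no row in the table.

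**Figure D1:**
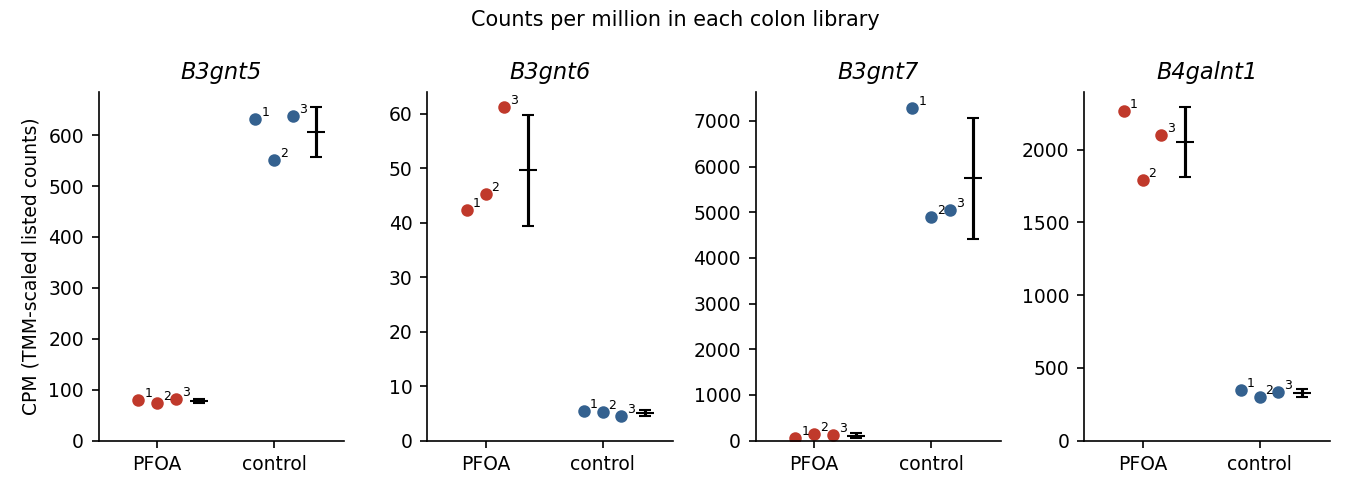
CPM (y axis, from 0) of B3gnt5, B3gnt6, B3gnt7 and B4galnt1 in each of the 3 PFOA and 3 control libraries; points are libraries with their replicate number, and black bars are the mean and SD. B3gnt5 and B3gnt7 are lower and B3gnt6 and B4galnt1 higher in every PFOA library than in any control library.

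Non-overlapping groups, as seen for all 4 genes, were the rule in this table, with 98% of the tested rows showing them. In a bulk tissue, fewer cells of a type and less RNA per cell cannot be told apart for any of these values. The plot of fold changes over all tested rows shows where the 4 genes lie among rows that begin at about a 2-fold difference.

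**Figure D2:**
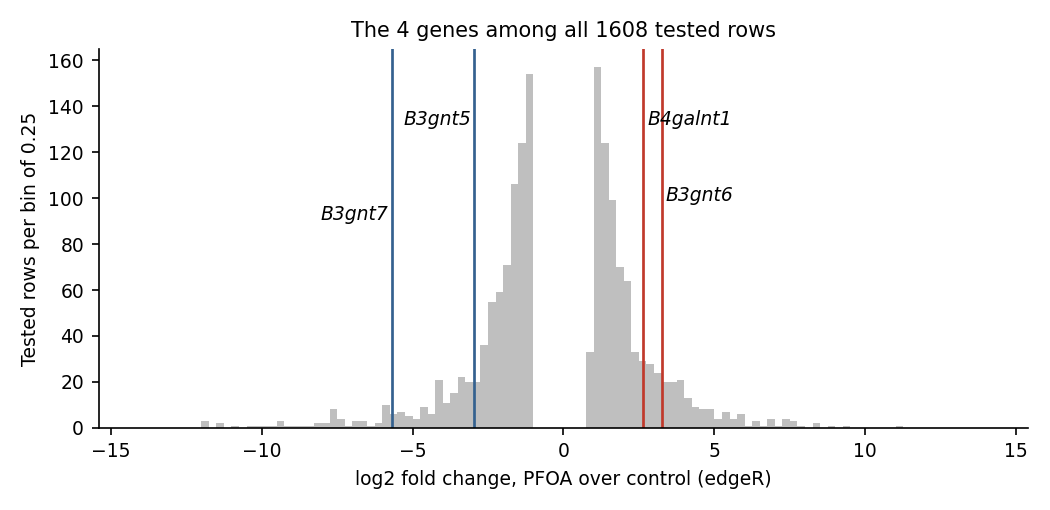
Number of tested rows (y axis) by edgeR log2 fold change of PFOA over control (x axis, bins of 0.25), with vertical lines at the 4 genes. The middle is empty because the rows were selected for a difference; B3gnt7 at -5.67 lies in the thin lower tail, and B3gnt5 at -2.95, B4galnt1 at 2.65 and B3gnt6 at 3.27 lie on the shoulders.

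Levels can be compared between the genes as CPM per kilobase of row length, and for all 4 the listed length equals the GENCODE exon union. In PFOA colon B4galnt1 was highest, at 519 to 657 CPM per kilobase. Far below it came B3gnt7 at 14.9 to 35.7 and B3gnt6 at 17.9 to 25.8, whose ranges overlap, and then B3gnt5 at 14.3 to 15.6, whose range lies under that of B3gnt6. In control colon B3gnt7 led with 1186 to 1758 CPM per kilobase, followed by B3gnt5 at 106 to 123, B4galnt1 at 86.3 to 101 and B3gnt6 at 1.91 to 2.26, with no overlap between neighbours. The 3 B3gnt genes thus lay within a narrow band in PFOA colon and far apart in control colon.

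**Figure D3:**
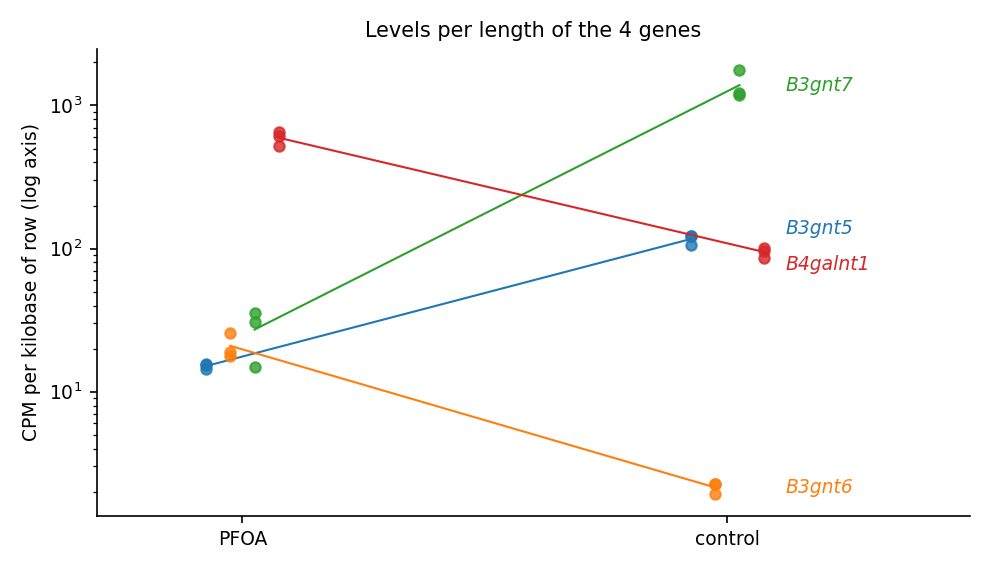
Level per length (y axis, CPM per kilobase of row, log axis) of the 4 genes in PFOA and control libraries; points are libraries and lines join the group means. B3gnt7 leads the control libraries at 1186 to 1758, and B4galnt1 leads the PFOA libraries at 519 to 657.

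Summed over B3gnt5, B3gnt6 and B3gnt7, the level was 48.1 to 72.3 CPM per kilobase in PFOA libraries and 1294 to 1881 in control libraries. B3gnt7 made up 31.0% to 51.7% of that sum in PFOA and 90.7% to 93.4% in control. B3gnt6 made up 27.6% to 37.1% in PFOA and 0.120% to 0.174% in control, and B3gnt5 20.7% to 31.9% in PFOA and 6.46% to 9.14% in control. The shares describe these 3 genes only, since other B3gnt genes have no row.

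Ratios between 2 genes within a library do not depend on how libraries are scaled, and all 6 pairs were compared on the log2 scale. B3gnt6 over B3gnt7 was -0.54, -1.70 and -1.06 in PFOA replicates 1, 2 and 3 and -10.34, -9.78 and -10.05 in control, a difference of 8.96. B3gnt7 over B4galnt1 was -5.20, -3.60 and -4.04 in PFOA and 4.38, 4.04 and 3.92 in control, so that the order of this pair was turned round in every library. B3gnt5 over B4galnt1, which join lactosylceramide to different sugars, was -4.82, -4.59 and -4.69 in PFOA and 0.85, 0.88 and 0.93 in control. This was the pair with the smallest spread, with an SD of 0.12 in PFOA and 0.04 in control.

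The 2 genes that were higher kept a closer ratio to each other: B3gnt6 over B4galnt1 averaged -5.38 ± 0.32 in PFOA and -5.95 ± 0.20 in control (SD, n = 3 each), a difference of 0.57. The 2 genes that were lower did not, since B3gnt5 over B3gnt7 averaged -0.42 ± 0.71 in PFOA and -3.22 ± 0.28 in control, a difference of 2.80. B3gnt5 over B3gnt6 differed by -6.16. The groups did not overlap for any pair, though for B3gnt6 over B4galnt1 the nearest libraries were -5.73 in PFOA and -5.74 in control. This gives an exact two-sided permutation p of 0.1 for each (adjusted p = 0.1 over 6 pairs, n = 3 per group), the smallest that 3 against 3 allows. For a pair of a higher and a lower gene, the separation follows from the separate groups of each gene. Since the rows were selected for a difference, these p-values are a description only. With 1 rather than 0.5 added to each count, the exact permutation p for B3gnt6 over B4galnt1 was 0.2 and its difference 0.51.

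**Figure D4:**
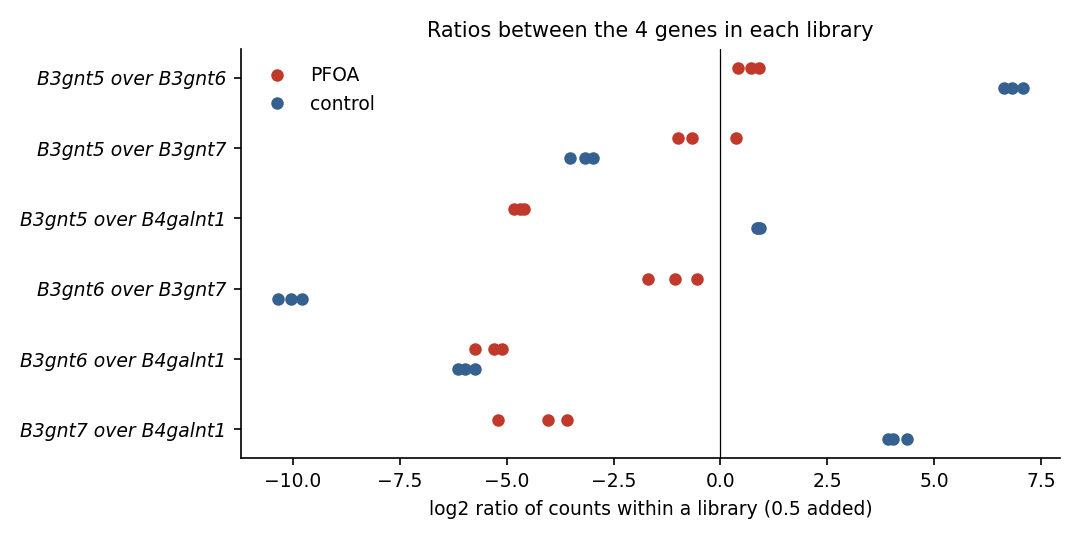
Log2 ratio of the counts of 2 genes within a library (x axis, 0.5 added to each count) for the 6 pairs (y axis); each point is 1 library of the PFOA or control group. The groups lie closest for B3gnt6 over B4galnt1 (difference 0.57) and farthest apart for B3gnt6 over B3gnt7 (difference 8.96).

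The 3 B3gnt genes share little sequence through which reads could be counted for each other. Their coding sequences, taken from GENCODE M21, were 43.2% to 51.1% identical in pairs, and the longest run shared between 2 of their transcripts was 11 bases. B4galnt1 was not compared with them. Its coding sequence was 53.8% identical to that of B4galnt2 and 33.4% to that of B4galnt3. The longest runs shared with their transcripts were 11 and 13 bases. The coding regions predict proteins of 376 amino acids for B3gnt5, 391 for B3gnt6, 397 for B3gnt7 and 533 for B4galnt1. The deposited annotation gives B3gnt5 and B3gnt7 the same protein family, Galactosyl_T, and they are the only pair of rows in the table with it. B4galnt1 carries Glycos_transf_2, which 3 rows have, and the B3gnt6 row carries no protein annotation.

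Of the 13 genes in the B3GNT and B4GALNT families, 6 had a row, and 3 of them were higher and 3 lower. B4galnt2, which adds N-acetylgalactosamine to make the Sda-type antigen of the gut, had 41973, 30268 and 29529 counts in PFOA and 4989, 9096 and 7101 in control, with a log2 fold change of 2.33 ± 0.34 (SE over 3 libraries a group; adjusted p = 8.14e-04 by edgeR). B4galnt3, which caps N-acetylglucosamine with N-acetylgalactosamine, had 805, 892 and 745 counts in PFOA and 5594, 3185 and 3795 in control, a log2 fold change of -2.32 ± 0.28 (SE over 3 libraries a group; adjusted p = 3.88e-04 by edgeR). Both families therefore hold members of either direction. The B4galnt2 row has a listed length of 29582 bases against 1722 in the GENCODE exon union, so its count covers an assembled locus wider than the annotated exons, and genes on the opposite strand overlap both rows.

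The pathways around the 4 genes were described with 9 lists of glycan genes, which hold 150 genes, of which 25 had a row. All 25 rows were tested, and 14 were higher and 11 lower in PFOA. A set taken instead from the deposited functional annotation, the rows annotated as sugar transferases, was chosen after values were seen and leaned the other way, with 7 of 16 rows higher and 9 lower and a median log2 fold change of -1.14. It holds Galnt17, of the enzyme family that starts mucin-type chains, with a log2 fold change of -1.25, and the merged row of Mgat4a, an N-glycan branching enzyme, with -1.54, both outside the lists. B3gnt6, whose row carries no annotation, is not in that set. A gene with no row is not shown to be unchanged. Over all tested rows the median log2 fold change was -0.03. It falls in the empty middle between higher and lower rows and was not stable. Over the rows shared with the main fit it was -1.21 under DESeq2 and 0.94 without the 20 most abundant rows. It is therefore no firm baseline for the list medians.

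Around B3gnt6, the list of mucin O-glycan cores and branches had 5 rows, 4 higher and 1 lower, with a median log2 fold change of 2.00. Gcnt4, a branching enzyme, had 286, 537 and 623 counts in PFOA and 41, 44 and 57 in control, a log2 fold change of 3.37. Gcnt3, the gut enzyme that makes core 2 and turns core 3 into core 4, had 12172, 12929 and 13116 counts in PFOA and 2455, 4079 and 3316 in control, a log2 fold change of 2.00. Galnt12, which starts mucin chains with N-acetylgalactosamine, was 2.23-fold higher. Gcnt1, another core 2 enzyme, was the lower one, at 2.05-fold. The groups did not overlap for these 4 genes. Muc2, the gel-forming mucin that carries such chains, is listed as 3 rows and had 76380, 221513 and 295500 counts in PFOA and 44143, 75981 and 79476 in control in the most abundant of them. Its log2 fold change there was 1.59, and edgeR's call was lost without control replicate 1 (adjusted p = 0.0730) and without control replicate 3 (adjusted p = 0.0551).

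Around B4galnt1 and B3gnt5, the list of glycosphingolipid and ganglioside synthesis had 6 rows, 4 higher and 2 lower, with a median log2 fold change of 1.97. Count and median rest in part on St3gal5: without PFOA replicate 1 they were 3 higher and 2 lower with a median of 0.51, and the count was also 3 higher without control replicate 1, 2 or 3. St8sia5, which adds the outer sialic acids of complex gangliosides downstream of B4galnt1, had 0, 0 and 2 counts in PFOA and 145, 95 and 220 in control. Its control-to-PFOA ratio, over the summed counts and corrected for library size, was 223, with a 95% Clopper-Pearson interval of 61.4 to 1848 that covers counting error only. Both PFOA counts lie in replicate 3, and without that library the level was at least 96.8-fold lower in PFOA, with a floor of 3 counts over the group. Ugt8a, which makes galactosylceramide, had 41, 255 and 245 counts in PFOA and 15, 9 and 12 in control, a log2 fold change of 3.89 ± 0.68 (SE over 3 libraries a group; adjusted p = 0.00147 by edgeR). St3gal1, a sialyltransferase, was 2.48-fold higher.

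St3gal5 makes GM3, a substrate of B4galnt1, and is named after its values were seen. It had 1095, 83 and 71 counts in PFOA and 55, 77 and 93 in control, so that only PFOA replicate 1 stood above the control range. Its log2 fold change of 2.63 (edgeR adjusted p = 0.0408) was -0.01 without PFOA replicate 1 (edgeR adjusted p = 0.98), and the call was lost without control replicate 1, 2 or 3 (edgeR adjusted p = 0.133, 0.0894 and 0.0898). It was also lost under limma-voom (adjusted p = 0.239) and when the replicate block was fitted (edgeR adjusted p = 0.321). It was the 1 row of the 25 whose groups overlapped. B4galnt1 did not share that pattern, with 2268, 1793 and 2103 CPM in PFOA replicates 1, 2 and 3.

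On the chains that B3gnt7 and B3gnt5 extend, these were the only genes with a row among 15 of the lacto, neolacto and poly-N-acetyllactosamine list, both lower, with a median log2 fold change of -4.31. B3gnt7 was also the only 1 of 20 genes of keratan sulfate and glycan sulfation with a row, and its value of -5.67 is that list's median. Enzymes that finish such chains had 4 rows in the list of fucosylation and blood group ends, 3 lower and 1 higher, with a median of -2.04. Fut9, which makes Lewis X ends, had 16, 45 and 37 counts in PFOA and 1962, 1496 and 2087 in control, a log2 fold change of -5.79 ± 0.39 (SE over 3 libraries a group; adjusted p = 4.69e-05 by edgeR). Fut4, which makes the same kind of end, was 3.75-fold lower and Abo, the blood group transferase, 4.54-fold lower, while B4galnt2 is the higher row of that list.

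The sialylation list had 2 rows higher and 3 lower, with a median of -1.55. The higher rows were St3gal1 and St3gal5, and without PFOA replicate 1 or any 1 control library only St3gal1 was called higher, with medians of -1.78 to -1.56. St3gal6, which caps galactose with sialic acid, had 608, 3113 and 2807 counts in PFOA and 9568, 11138 and 13929 in control, and Nans, which makes the sialic acid precursor, was 2.93-fold lower. Nucleotide sugar supply and transport had 4 rows, all higher, with a median of 1.35. Slc35d1, a transporter of nucleotide sugars into the secretory pathway, was 2.87-fold higher, Slc35d2 was 2.26-fold higher, and the merged row of Ugdh, Gm43552 and Smim14 was 2.00-fold higher. Papss2, which makes the sulfate donor, was 3.23-fold higher, and its log2 value of 1.69 was 1.09 once PFOA replicate 1 was left out. Of the glycan breakdown list, Neu3, a ganglioside sialidase, was 3.66-fold lower, and Gla, an alpha-galactosidase, 2.31-fold higher.

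**Figure D5:**
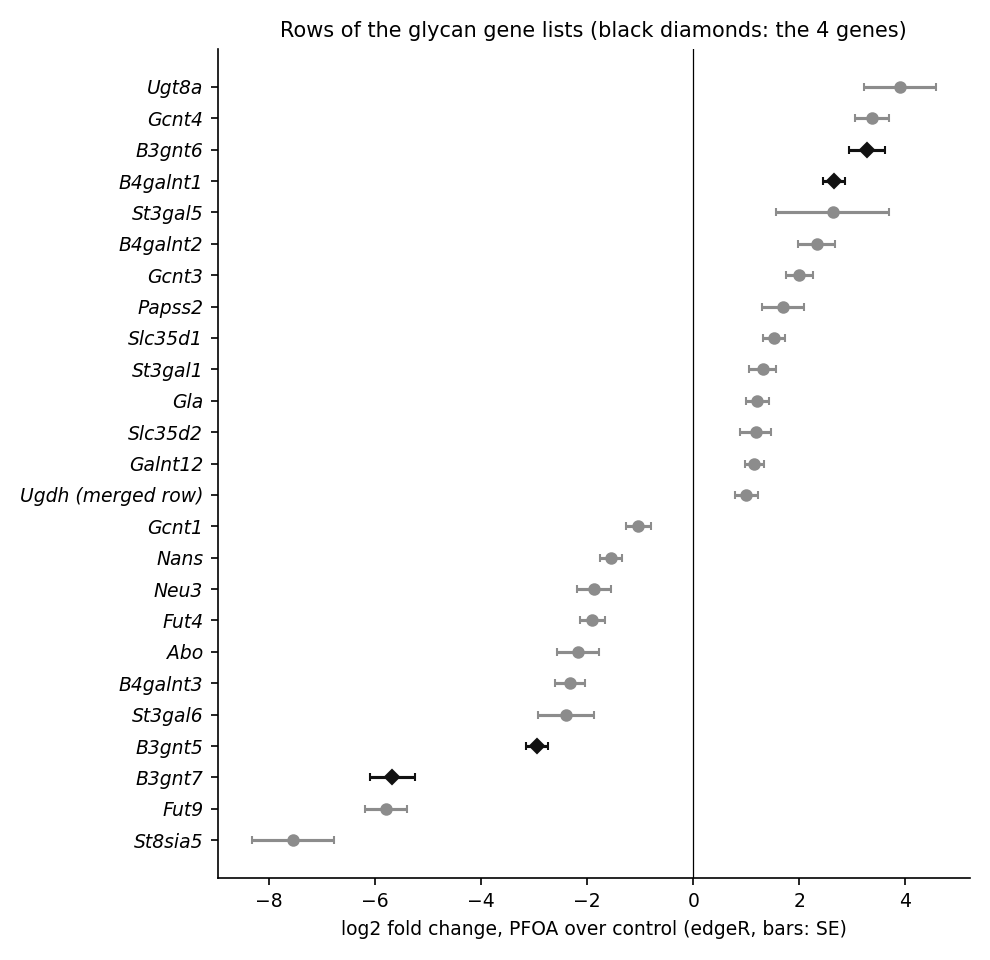
The edgeR log2 fold change of PFOA over control (x axis, bars are SE) for the 25 rows of the glycan lists (y axis), with B3gnt5, B3gnt6, B3gnt7 and B4galnt1 as black diamonds. B3gnt7 at -5.67 stands beside Fut9 at -5.79, below most other lower rows, and St3gal5 has the widest bar, since 1 PFOA library carries its value.

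The rows whose pattern over the 6 libraries was most like each gene were found among 1221 other tested rows with a single reference symbol, by the root mean square difference of log2 CPM after centring each row on its mean. For B3gnt7 the nearest was Fut9, at 0.157, followed by Spink1, a trypsin inhibitor, at 0.245, with 22, 38 and 42 counts in PFOA and 2025, 1825 and 2062 in control. Itih2, a hyaluronan-binding plasma protein, came next at 0.393. For B4galnt1 the nearest were Bmper, a BMP-binding protein, at 0.195, Slc17a4, an intestinal anion transporter, at 0.218, and Ppara, the fatty acid receptor PPAR-alpha, at 0.2305. Ppara had 7039, 10115 and 9728 counts in PFOA and 1708, 1643 and 1758 in control. For B3gnt5 they were Npy1r, a neuropeptide Y receptor, at 0.153, Gpr137b at 0.160 and Trpv1, the capsaicin receptor channel, at 0.172. For B3gnt6 they were Ddx43, a helicase, at 0.2145, the long non-coding RNA 9030616G12Rik at 0.249 and Grip2 at 0.260. In a table of rows selected for the same contrast such likeness is a description of 6 libraries and carries no test.

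Across the table, the listed counts per library ranged from 1771120 to 2269892, and these are not sequencing depths. Cdx2, the intestinal epithelial regulator, was the only 1 of 8 epithelial markers with a row. It had 4617, 3549 and 4066 counts in PFOA and 619, 1313 and 868 in control. Its row was selected for a difference, as the other rows were, so it is no check of the tissue. Markers of the posterior colon, a list written with earlier results of these data known, differed between the same groups. All 7 genes of that list had a row and were lower in PFOA. Their summed level was 78.8 to 129 CPM in PFOA and 11479 to 16341 CPM in control, and Evx2 was at 0 in every PFOA library. Not every Hox row outside the list went this way. Hoxc10 had 10, 8 and 11 counts in PFOA and 0, 0 and 0 in control, and did not pass the filter on low counts. Hoxb13, a posterior patterning factor, had 0, 6 and 3 counts in PFOA and 9884, 5730 and 7988 in control. Small intestinal markers had 5 rows, 4 higher and 1 lower, at 3441 to 6411 CPM in PFOA and 623 to 1352 CPM in control. The part of either list in the levels of the 4 genes was not tested.

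Goblet cells, where core 3 chains are made, had rows for 7 of 12 marker genes, 4 rows higher and 5 lower. Their summed level overlapped between the groups, at 150246 to 333071 CPM in PFOA and 146393 to 266399 CPM in control. Of these rows 3 were of Muc2, all higher, with log2 fold changes of 1.65, 1.59 and 1.58. Muc2 thus entered the sum 3 times, and the merged row of Fcgbp was lower, at -1.19. An overlap of such sums does not show that goblet cell levels were alike. Absorptive colonocyte markers, with 2 rows higher and 2 lower, overlapped too, at 30290 to 84558 CPM in PFOA and 30613 to 49333 CPM in control. Enteroendocrine markers had 2 rows higher and 3 lower, at 586 to 677 CPM in PFOA and 2820 to 3277 CPM in control, with Nts at 0 in every control library. Insl5, with a log2 fold change of -6.98, is among these lower rows and also stands in the posterior colon list. Of 14 markers of enteric neurons and glia, cells in which complex gangliosides are abundant, Gfap had a row, at 49.9 to 60.7 CPM in PFOA and 15.97 to 18.6 CPM in control. Smooth muscle had 1 row of 9 genes, lower, at 1478 to 2094 CPM in PFOA and 2553 to 5922 CPM in control.

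Of the immune lists, B and plasma cells had no row of 11 genes, and myeloid cells 1 of 10, Ly6g, which was lower at 5.60 to 30.0 CPM in PFOA and 571 to 967 CPM in control. T and natural killer cells had 6 rows, all higher, at 128 to 300 CPM in PFOA and 46.9 to 72.2 CPM in control. Adipocyte markers had 5 rows, of which the 3 tested were higher, at 288 to 1169 CPM in PFOA and 30.8 to 73.6 CPM in control. The call of Cd8a, a T cell gene, was lost without control replicate 2 or 3 (edgeR adjusted p = 0.0597 and 0.0526). That of Cfd, an adipocyte gene whose groups overlapped, was lost under limma-voom, with the replicate block and without PFOA replicate 3 or control replicate 1, 2 or 3 (adjusted p = 0.0687 to 0.289 by edgeR or limma). The part of these cell types in the values of the 4 genes was not tested.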

How the data were processed

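Colon RNA of 3 PFOA and 3 control libraries, prepared using the SMARTER mRNA-Seq kit (per the labels), was deposited by the authors as one table of raw counts per gene row. HISAT2, HTSeq and the mm10 build are named in the submitters' processing notes. How rows were selected, which assembler was used and whether counting used strand or multi-mapping reads is not given in the sources used here. The authors' length column gives bases per row and was set against GENCODE M21.

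The main test was the quasi-likelihood F test of edgeR 4.0.16 in R 4.3.3, PFOA against control with no covariates (glmQLFit, glmQLFTest), after filterByExpr had kept 1608 of 2033 rows and TMM had scaled them, with Benjamini-Hochberg adjustment over all tested rows at 0.05. The SE is the absolute log2 fold change divided by the square root of F. Plain folds are ratios of mean CPM. Log2 CPM used a prior count of 2 and within-library ratios added 0.5. The common dispersion was 0.124. This step was also run on simulated counts with known changes, whose levels and dispersions came from the main fit. The outcome of that run is not used here. Libraries of a group differed beyond sampling noise. The chi-square per degree of freedom between replicates 2 and 3 was 22.4 in control and 34.5 in PFOA. For pairs with replicate 1 it was larger, at 121 and 138 in control and 282 and 363 in PFOA.

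The 4 genes and the 21 lists (9 of glycan genes, 12 of markers) were chosen with earlier results of these data known. A gene left out of the glycan breakdown list after the fits is not reported here. Named genes were the family rows and up to 4 rows with the smallest p of each glycan list. Rows with the highest mean CPM of the marker lists and the 3 nearest patterns were named too. Evx2 and Nts were named for being at 0. The Gm16341 row, Gcnt1 and Hoxc10 were named after their values were seen. Alternatives were DESeq2 1.42.0, limma-voom (limma 3.58.1), other scalings and filters, a fold minimum, a replicate block and each library left out. The counts of the glycan lists and the St8sia5 ratio with libraries left out were added after seeing the data. Intervals cover counting error only.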

Additional observations from a re-analysis of the deposited data

How the results depend on the processing

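The 4 fold changes kept their direction and their call in all 60 refits (15 alternatives for each gene). In the main fit 100% of the 1608 tested rows were called, since the table was selected for a difference. A kept call therefore does not set these 4 genes apart. Over these, the log2 fold change ranged from -5.87 to -5.41 for B3gnt7, from -3.16 to -2.86 for B3gnt5, from 3.07 to 3.38 for B3gnt6 and from 2.43 to 2.79 for B4galnt1, and the largest adjusted p was 0.00254. None of these alternatives moved a fold by more than 1.20 times. All of them were scaled on the selected rows alone, so this range does not tie the folds to the whole transcriptome. The median of the shifts of single rows was -0.20 on the log2 scale when scaling by the listed totals and -0.18 under DESeq2. The 4 values moved with these shifts: B3gnt5 was -3.16 and B3gnt6 3.07 with the listed totals. Counts of all called rows ranged from 721 to 1033 higher and from 786 to 998 lower, each within 1.5 times of 804. The within-library ratios kept their direction with 1 added to each count and with each library left out, where 0.2 is the smallest p possible; B3gnt5 over B3gnt7 ranged from 2.40 to 3.08 and B3gnt6 over B4galnt1 from 0.43 to 0.75.

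Replicate numbers are shared by the groups, but nothing in the labels says that they pair the libraries. Deviations from the group means correlated at 0.11, -0.03 and 0.10 for numbers 1, 2 and 3, and PFOA replicate 2 correlated best with control replicate 3 (0.12), so the numbers were not treated as pairs. With a replicate block the log2 fold changes were -2.95 for B3gnt5, 3.26 for B3gnt6, -5.72 for B3gnt7 and 2.65 for B4galnt1, and 780 rows were called higher and 799 lower. Depth limits B3gnt6 most, with 10 or 11 counts in each control library.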
